A study of Mus musculus with 18 samples.

Results

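The cytosolic ribosomal protein genes were taken from the array's gene symbols: every symbol made of Rpl or Rps and a digit, with Rplp0, Rplp1, Rplp2 and Rpsa, and without the Rps6k kinases and the symbols marked -ps. The rule found 50 genes among the 18193 genes that a probe set named alone. Of these 50, 47 were above the filter on low signal and were tested, among 11018 genes tested in all. The other 3, Rpl3l, Rpl39l and Rps16, lay under the filter, with mean signals of 7.79, 21.1 and 2.42. The rule also takes in Rps19bp1, which codes for a protein that binds Rps19 and is not itself a part of the ribosome.

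The arrays measured liver RNA of young of the mouse line DUK, an outbred line bred from a cross of several outbred and inbred lines. Dams ate isoenergetic diets with 20% protein (control) or 40% protein (high protein, HP) by weight. In the HP pregnancy groups the dams ate the 40% diet in pregnancy only, in the HP lactation groups in lactation only, and in the control groups the 20% diet throughout. Livers were taken at day 21 or day 150 of age, which gave 6 groups of 3 arrays: control, HP pregnancy and HP lactation at each day. Every array was run on a pool of livers. The labels differ on the number of livers, and do not settle whether pools of a group shared animals, so that p-values describe the spread between these pools. The labels give no sex. Xist signal, a mark of female tissue, was present on 2 arrays, control replicate 2 at day 21 and HP lactation replicate 4 at day 150.

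The ribosome is built of a large (60S) and a small (40S) subunit, each made of ribosomal RNA and of proteins of the Rpl and Rps families. Ribosomal protein mRNAs carry a terminal oligopyrimidine (TOP) tract, a run of C and T bases at the very start of the transcript, through which mTORC1 signalling controls their translation. They are among the most abundant mRNAs of the liver, where protein supply acts on translation through that same pathway. Several members have a paralog with the suffix l or l1 whose protein can stand in for the better known one or does other work in the cell.

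The start regions of 10 members are printed here, since the run of C and T is the feature the family is known by: those called between the ages on every scale used below, with Rps4x, Rpl39 and Rpl35, which are also described. RefSeq (GRCm38.p6) gave start regions for 44 of the 50 members. Each line gives 40 bases before the listed start and 25 bases from it, 5′ to 3′ on the gene's own strand, with runs of at least 8 C or T bases in capitals.
Rplp2, chr7:141447611-141447675, plus strand: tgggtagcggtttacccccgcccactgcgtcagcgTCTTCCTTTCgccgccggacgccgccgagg
Rpl22l1, chr3:28805468-28805532, plus strand: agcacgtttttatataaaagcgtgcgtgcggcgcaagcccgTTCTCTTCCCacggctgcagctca
Rpl22, chr4:152325686-152325750, plus strand: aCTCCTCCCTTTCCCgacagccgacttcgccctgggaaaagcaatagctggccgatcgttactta
Rps27l, chr9:66946046-66946110, plus strand: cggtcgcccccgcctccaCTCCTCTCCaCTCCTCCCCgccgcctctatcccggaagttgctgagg
Rpl27a, chr7:109519155-109519219, plus strand: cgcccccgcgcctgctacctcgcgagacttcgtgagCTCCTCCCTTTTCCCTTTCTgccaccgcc
Rpl7l1, chr17:46782632-46782696, minus strand: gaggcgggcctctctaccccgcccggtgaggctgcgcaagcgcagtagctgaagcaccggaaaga
Rpl14, chr9:120571477-120571541, plus strand: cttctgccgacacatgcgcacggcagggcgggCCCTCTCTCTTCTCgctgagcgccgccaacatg
Rps4x, chrX:102189367-102189431, minus strand: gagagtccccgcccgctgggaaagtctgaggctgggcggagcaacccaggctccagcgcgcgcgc
Rpl39, chrX:37085198-37085262, minus strand: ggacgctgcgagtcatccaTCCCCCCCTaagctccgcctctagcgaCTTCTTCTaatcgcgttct
Rpl35, chr2:39005107-39005171, minus strand: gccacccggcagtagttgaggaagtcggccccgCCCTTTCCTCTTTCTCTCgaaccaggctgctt
In Rplp2, Rpl27a, Rpl14 and Rpl35 such a run lies across or next to the listed start, and in Rpl22l1 it begins just after it. The windows of Rpl7l1 and Rps4x hold no such run. Rps4l, also called on every scale, had no entry in the table. The listed start of Rpl22 lies downstream of its run. A run of this kind within 40 bases of the listed start was found in 33 of the 44 members (75%), against 34% of the first start region of all 27025 genes in the table. The 7 letters CCGGAAG, the core that Ets factors such as GABP bind, stood on either strand of the 300 bases from 250 before to 50 after the start in 21 of the 44 (47.7%), against 9.12% of all genes. The YY1 letters AAGATGGC were found in 3 of the 44 (6.82%, against 2.88%), and the TATA box letters TATAAA in 5 (11.4%, against 14.2%). CCGGAAG and AAGATGGC can share the letters AAG, and TATAAA and AAGATGGC the letters AA. Matches of different motifs shared letters in 0 of the 44. A match describes letters and is not evidence of a bound site.

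The tested members fell into a high and a low set with nothing between them. The limit of 10000 used here to part them was placed in that gap after the values were seen. Signal is the deposited MAS5 value, on a linear scale with the same trimmed mean of 499.8 on every array. In the high set, 36 members had mean signals from 15214.9 (Rps9) to 37922.6 (Rps29), and all 36 were in the top 10% of genes tested. In the low set, 11 members had means from 208 (Rpl12) to 1631.1. For 8 of those 11, among them Rpl12, Rpl14, Rpl27a, Rpl39, Rps6, Rps25 and Rps27, another probe set that lists several symbols gave a signal above 10000. Their low value is that of the probe set that names them alone, and may not be the level of the mRNA. Which of the listed transcripts gave the brighter signal was not tested. Only Rpl7l1, Rps4l and Rps19bp1 had no probe set of several symbols above 10000. A further 31 ribosomal protein symbols appear only on probe sets with several symbols and are not named here. Of the 47, 33 were read on probe sets of the _a, _s or _x designs, which can bind more than 1 transcript. Other transcripts, of the same gene or of related ones, may thus add to their signal. Signals are sorted and ranked here as probe set values. The mRNA levels of different genes are not compared, since each probe set has its own response.

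**Figure D1:**
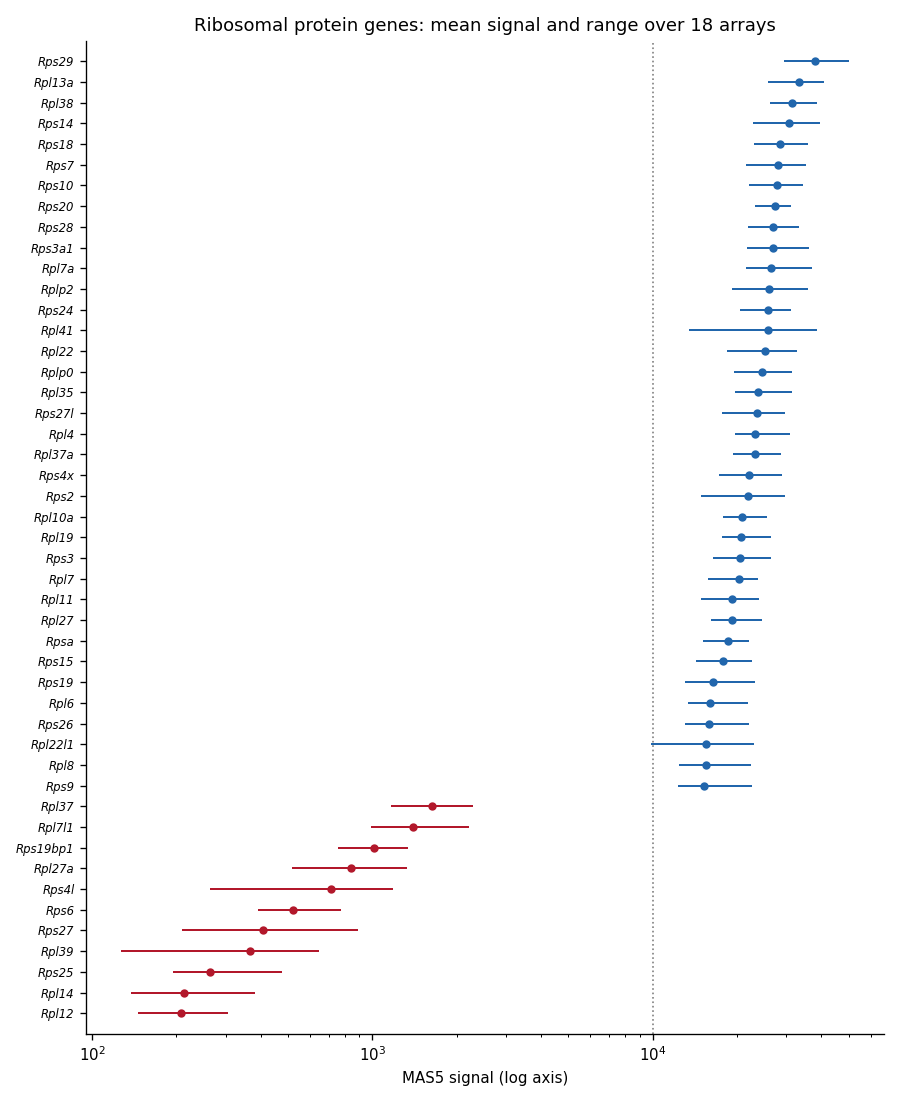
Mean MAS5 signal (points, log axis) and range over the 18 arrays (lines) of the 47 tested genes, with the 36 abundant genes in blue, the other 11 in red and the limit of 10000 dotted. No gene has a mean between 1631.1 and 15214.9.

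Rps29, a small-subunit protein, had the highest signal. Its values were 44079, 42644 and 39469 in the control arrays at day 21, 33909.7, 31353 and 35238 after HP in pregnancy and 33221, 37866 and 29622 after HP in lactation. At day 150 they were 37808, 46729 and 43319, 35775, 36993 and 39586 and 49588, 35884 and 35612 in the same order of diets. The day 21 control arrays were above all 6 HP arrays of that day, while at day 150 the diets overlapped.

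The abundant members moved together from array to array. Within each group 1 array was the highest for many of them: control replicate 2 at day 21 for 32 of 36, HP lactation replicate 2 at day 21 for 34, control replicate 2 at day 150 for 32, HP pregnancy replicate 3 at day 150 for 33 and HP lactation replicate 4 at day 150 for 35. In HP pregnancy at day 21, replicate 1 was the highest for 20 and replicate 3 for 16. The median over all 47 members had a standard deviation (SD) of 0.149 (log2) between arrays of a group, and 0.056 after quantile normalization, which gives all arrays the same distribution of signals. The signal at the top of the arrays moved with it: the 99th percentile of all signals was 18781.1 ± 1101.7 (SD, n = 3) in control, 16546.8 ± 734.3 in HP pregnancy and 16150.4 ± 1430.1 in HP lactation at day 21. Part of these top signals are the members' own, so that the percentile is not independent of them. Quantile normalization evens out the top of the arrays, and would also take away a true shift of the family. For these reasons results for this family are given on both scales.

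**Figure D2:**
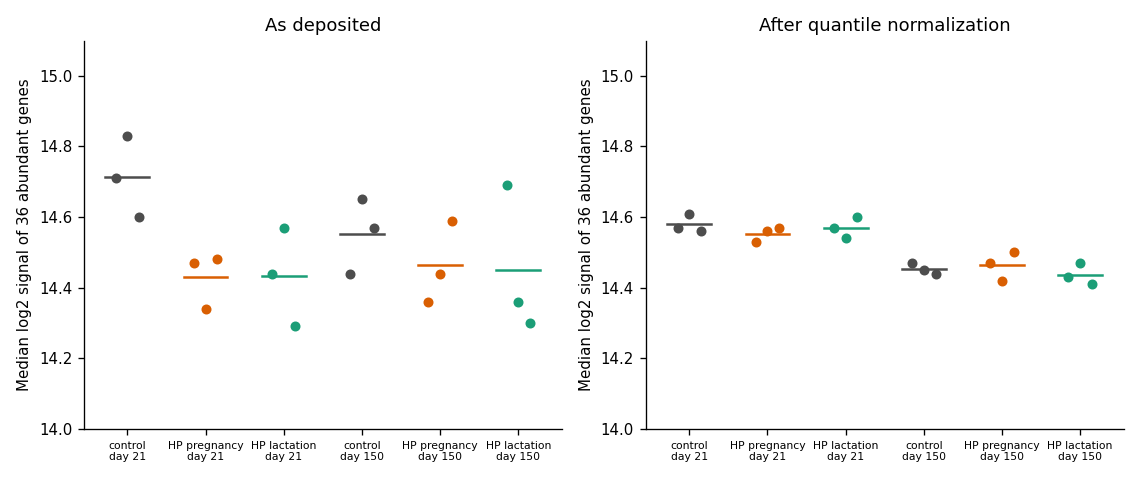
Median log2 MAS5 signal of the 36 abundant genes on each array (points) and its group mean (lines), by diet and day, as deposited (left) and after quantile normalization (right). As deposited, the day 21 control group had a mean of 14.71 and both HP groups 14.43, and the spread between arrays narrowed after normalization.

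The first question was whether, at day 21, young of dams on the HP diet differed from controls. On the deposited scale ribosomal protein signals were lower in both HP groups by about the same amount, and no single member passed the test. After HP in pregnancy 45 of 47 members had a negative difference, all 36 abundant ones among them, and the median difference was -0.25 (log2), against 0.01 for all genes and -0.12 for the other genes of the top 10% by signal. After HP in lactation 42 of 47 were negative, again with all 36 abundant ones, with a median of -0.27, against 0.00 for all genes and -0.20 for the other highly expressed ones. Both comparisons use the same 3 control arrays, so the likeness of their medians is not independent. After quantile normalization the medians were -0.04 and -0.03, with 32 and 31 members negative. With arrays scaled to an equal 75th percentile, which moved the median of all genes by -0.07 and -0.13, the members' medians were -0.33 and -0.39.

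In limma with Benjamini-Hochberg adjustment over 11018 genes and a threshold of 0.05, 0 of 47 members were called after HP in pregnancy (0% of all genes were called) and 0 of 47 after HP in lactation (0.172% of all genes). At an unadjusted p under 0.05 there were 16 members (34%) after HP in pregnancy. For all genes the share was 9.98%, and for the other genes of the top 10% by signal 14.1%. After HP in lactation there were 23 members (48.9%), against 14.3% of all genes and 32.4% of those other bright genes. On the quantile scale the members' counts were 3 (6.38%, against 8.57% of all genes) and 1 (2.13%, against 12.7%). All 3 HP pregnancy arrays were below all 3 control arrays for 25 members (7.74% of all genes had such arrays), and all 3 HP lactation arrays for 19 (8.71%). Of the 1066 other genes of the top 10% by signal, 284 and 328 had such arrays. On the quantile scale the members' counts were 2 (7.93% of all genes) and 3 (10.5%).

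The large and the small subunit had like medians. Among the 18 abundant large-subunit members the median was -0.26 after HP in pregnancy and -0.27 after HP in lactation, and among the 18 small-subunit ones -0.27 and -0.29.

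**Figure D3:**
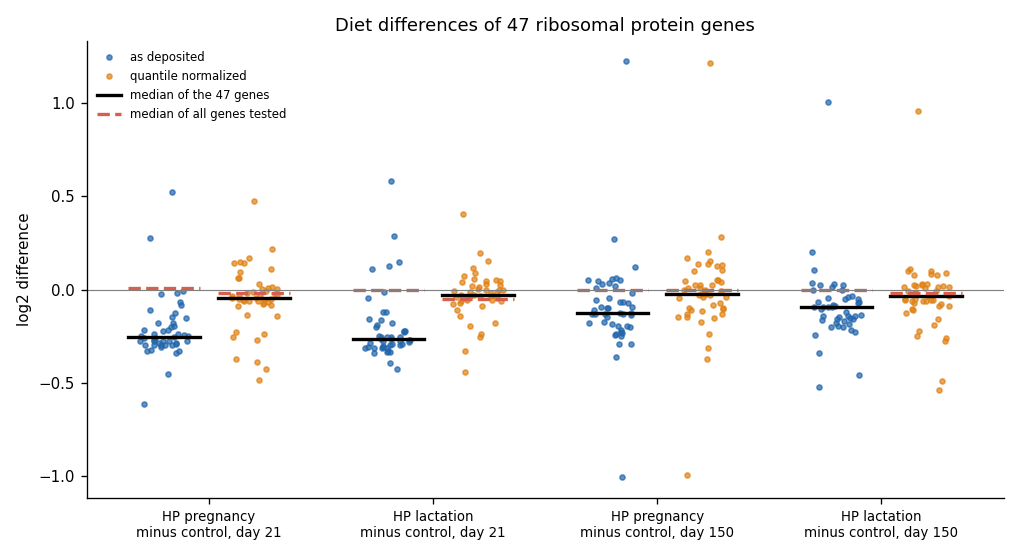
Differences from control (log2) of the 47 genes (points) in the 4 diet comparisons, as deposited (blue) and after quantile normalization (orange), with the median of the 47 genes (black) and of all genes tested (dashed red). At day 21 the deposited medians are -0.25 and -0.27 and the normalized ones -0.04 and -0.03.

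The members with the smallest p after HP in pregnancy at day 21 were Rpl41, Rps18, Rps29 and Rpl37. Rpl41 codes for the smallest protein of the large subunit. Its signals were 29575, 34134 and 26006 in control and 13590.3, 22057 and 24551 in HP pregnancy arrays. The groups did not overlap, and replicate 1 of HP pregnancy was the lowest of all. The difference was -0.61 (SE 0.20, limma adjusted p = 0.33), or -0.39 on the quantile scale (adjusted p = 0.53). It was -0.35 without replicate 1 of HP pregnancy (adjusted p = 0.72), and the other abundant probe set of the gene gave -0.19 (adjusted p = 0.71). Rps18, a small-subunit protein at the head of the 40S, had 34945, 35666 and 32604 in control and 29459, 24962 and 28315 in HP pregnancy arrays, again without overlap (-0.32, SE 0.12, limma adjusted p = 0.39). On the quantile scale its difference was -0.04 (adjusted p = 0.88).

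After HP in lactation at day 21 the smallest p belonged to Rpl22l1, the paralog of the large-subunit protein Rpl22. Its signals were 20668, 22335 and 18100.5 in control, 22783, 17054 and 21288 in HP pregnancy and 13978, 16937 and 14596 in HP lactation arrays. The HP lactation arrays were below all arrays of the other diets, and the other diets overlapped. The difference of HP lactation from control was -0.42 (SE 0.14, limma adjusted p = 0.20) and that of HP pregnancy from HP lactation 0.42 (SE 0.14, adjusted p = 0.15). On the quantile scale the same differences were -0.20 (adjusted p = 0.47) and 0.41 (adjusted p = 0.07).

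Rps19, a small-subunit protein known from Diamond-Blackfan anaemia, had 19074, 23025 and 17695 in control and 15373, 16888 and 13274 in HP lactation arrays at day 21, with no overlap (-0.39, SE 0.14, limma adjusted p = 0.22, and -0.18 on the quantile scale, adjusted p = 0.43). Rpl12, of the stalk base, had a positive difference on its low-signal probe set: 167, 176 and 234 in control and 302, 281 and 273 in HP lactation arrays, also with no overlap (0.58, SE 0.22, limma adjusted p = 0.25, and 0.41 on the quantile scale, adjusted p = 0.44). It was the only member whose HP lactation arrays all lay above the controls (7.43% of all genes had such arrays).

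At day 150 the question was whether a difference was present long after the diets had ended. 1 of 47 members was called after HP in pregnancy (2.63% of all genes were called, 1.52% as higher), and the abundant members had 0 calls, with 0 of the 36 at an unadjusted p under 0.05 as deposited (20% of all genes) and 3 of the 36 on the quantile scale (19.9% of all genes). The median difference of members was -0.12 on the deposited scale and -0.02 on the quantile scale, against 0.00 for all genes on both. After HP in lactation 0 of 47 were called (0.00908% of all genes), with 3 at an unadjusted p under 0.05 (6.38%, against 7.72% of all genes), and the median was -0.10, or -0.04 on the quantile scale. For the other genes of the top 10% by signal the deposited medians were -0.08 after HP in pregnancy and -0.07 after HP in lactation.

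The called member was Rpl39, a small protein at the exit tunnel of the large subunit, on a probe set of low signal. Its signals were 316, 128 and 289 in control and 475, 643 and 488 in HP pregnancy arrays, and 572, 401 and 414 in HP lactation arrays. Both HP groups lay above control without overlap, and control replicate 2 was the lowest of all 18 arrays. Over all genes, 1659 of 11018 had HP pregnancy arrays all above control, and 818 had such HP lactation arrays. The difference of HP pregnancy from control was 1.22 (SE 0.30, limma adjusted p = 0.041), and that of HP lactation 1.005 (SE 0.30, adjusted p = 0.47). The call was lost when any 1 of the 6 arrays was left out (adjusted p from 0.058 to 0.19), and without control replicate 2 the difference was 0.81 (adjusted p = 0.14). At day 21 the 3 diets overlapped on this probe set, with 342, 297 and 504 in control, 414, 235 and 258 in HP pregnancy and 498, 335 and 387 in HP lactation arrays.

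Rps4l, a paralog of the X-linked small-subunit gene Rps4x, stood at the threshold. Its day 150 signals were 980.1, 782 and 684 in control, 471, 266 and 516 in HP pregnancy and 600.0, 431 and 785 in HP lactation arrays. All HP pregnancy arrays were below all control arrays, as they were for 5 of 47 members and 1419 of all 11018 genes. The difference was -1.01 (SE 0.27, limma adjusted p = 0.050, just above the threshold before rounding), or -0.99 on the quantile scale (adjusted p = 0.057). With single arrays of these groups left out, the limma adjusted p ran from 0.06 to 0.25. The highest was without replicate 2 of HP pregnancy, where the difference was -0.71. Rps4x itself had 19296, 23180.1 and 21192 in control and 17379.8, 18061 and 18534 in HP pregnancy arrays, also without overlap (-0.23, SE 0.12, limma adjusted p = 0.29, and -0.11 on the quantile scale, adjusted p = 0.27).

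The HP groups were also set against each other, to compare the 2 windows of feeding. In both days 0 of 47 members were called (1.28% of all genes at day 21 and 0.717% at day 150), with 1 and 2 members at an unadjusted p under 0.05 (2.13% and 4.26%, against 14.9% and 17.4% of all genes) and medians of 0.01 and 0.00. On the quantile scale 5 members were at that p on each day (10.6%, against 16.4% and 18.3% of all genes). Rpl22l1 had the smallest p in both: at day 150 its signals were 13334, 14918 and 15629 after HP in pregnancy and 10942, 12630.3 and 9978 after HP in lactation, without overlap (0.39, SE 0.14, limma adjusted p = 0.16). The control arrays, at 12264, 13476 and 16968, overlapped with both. Of all 11018 genes, 1328 had HP pregnancy arrays all above the HP lactation arrays at day 150. Whether the response to diet differed between the days was tested as an interaction. 0 of 47 members were called for HP in pregnancy (0.0182% of all genes) and 0 of 47 for HP in lactation (0.0182%), with 2 and 1 members at an unadjusted p under 0.05 (4.26% and 2.13%, against 3.87% and 5.1% of all genes). Medians were 0.12 and 0.13 on the deposited scale, and 0.00 and -0.02 on the quantile scale.

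Genes that build or regulate ribosomes were read from lists beside the members. Of 59 tested genes of ribosome biogenesis, which make and assemble ribosomes in the nucleolus, 48 had a positive difference after HP in lactation at day 21 (median 0.24, and 0.16 on the quantile scale), 14 had an unadjusted p under 0.05 (14.3% of all genes had), and 0 were called in limma (0.172% of all genes). Against HP in lactation, HP in pregnancy was lower by a median of 0.31 over the same list, with 52 of 59 genes negative. At an unadjusted p under 0.05 there were 24 of the 59 (14.9% of all genes had such a p). In limma 4 genes passed (0.381% of all genes were called lower). They were the small nucleolar ribonucleoprotein cores Nop58 (1100.9 against 2161.5, -0.97, SE 0.17, limma adjusted p = 0.0096) and Nop56, the nucleolar chaperone Nolc1, and Utp4 of the small-subunit processome. In the same comparison the members' median was 0.01. Of the other lists named next, 0 genes were called in limma in this comparison. Of 12 cell cycle genes 11 were negative (median -0.91, 7 at an unadjusted p under 0.05). All 4 B and plasma cell markers tested were positive (median 1.11, 3 at that p), and 4 of 6 macrophage markers (median 0.44, 4 at that p), where 14.9% of all genes were at that p. Summed signals of the macrophage markers were 10001.3 to 13446 after HP in pregnancy and 7966.2 to 10485 after HP in lactation, and those of the B and plasma cell markers 377.6 to 543.6 and 140.5 to 278.2. The part of these cells in the biogenesis difference was not tested. Of 15 other TOP mRNAs, 13 were negative in each HP group at day 21 (medians -0.16 and -0.19, and -0.01 and -0.03 on the quantile scale), and 0 were called, with 2 after HP in pregnancy and 4 after HP in lactation at an unadjusted p under 0.05 (9.98% and 14.3% of all genes). Against control at day 21, 0 of 33 initiation factors, 76 mitochondrial ribosomal proteins and 16 genes of mTORC1 and TOP control were called in either HP group. At an unadjusted p under 0.05 there were 3, 5 and 3 after HP in pregnancy and 6, 13 and 3 after HP in lactation, to be read against the same shares of all genes.

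Age set the arrays apart more than diet did: 17.8% of all genes were called between day 150 and day 21 in control, 23.6% in HP pregnancy and 25.7% in HP lactation. Members were called at 4, 7 and 4 of 47 in these diets. In control, Rpl7l1 and Rpl27a rose and Rpl22l1 and Rplp2 fell. In HP pregnancy, Rpl27a, Rpl7l1, Rps27l and Rpl39 rose and Rps4l, Rpl22l1 and Rplp2 fell. In HP lactation, Rpl27a and Rps27l rose and Rpl22l1 and Rps4l fell. These counts moved with single arrays, and the shares of all genes called in the fits with an array left out are not given. Leaving out 1 array of the 2 groups compared gave 0 to 3 calls in control, with 0 without replicate 2 of either day, 1 without replicate 1 of day 150 and 2 without replicate 3 of day 21. It gave 2 to 5 in HP pregnancy, with 2 without replicate 3 of day 21, 3 without replicate 1 or 2 of day 150 and 4 without replicate 2 of day 21. It gave 1 to 4 in HP lactation, with 1 without replicate 4 of day 150 and 2 without replicate 1 or 2 of day 21. Control replicate 2 of day 21 and HP lactation replicate 4 of day 150 are the arrays with Xist signal. The calls of Rps27l were lost on the quantile scale, with limma adjusted p of 0.052 in HP pregnancy and 0.10 in HP lactation, and the other calls named here were kept. On that scale the counts were 10, 13 and 12, of which 8, 10 and 11 were lower (8.3%, 11.4% and 11.8% of all genes were called lower on that scale). Medians were -0.08, 0.04 and 0.06 as deposited, and -0.08, -0.05 and -0.09 on the quantile scale, so that the direction of the family as a whole in the HP groups turned with the scale.

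The mean of the 3 within-diet differences, 9 arrays against 9, was added after the within-diet results were seen. It called 15 of 47 members (31.9%), 4 higher and 11 lower, against 47.6% of all genes, 25.3% higher and 22.3% lower. On the quantile scale 24 were called, 5 higher and 19 lower (48.3% of all genes, 21.7% lower). All 4 higher calls and 10 of the 11 lower calls were made on both scales. With arrays scaled to an equal 75th percentile, 10 were called, 6 higher and 4 lower (47.4% of all genes). With arrays centred on the median abundant member, 27 were called, 15 higher and 12 lower (41% of all genes). That scale takes the members as their own reference, so its calls are changes against the rest of the family. Rpl22, Rps27l, Rpl7l1 and Rpl27a were higher and Rpl22l1, Rplp2, Rps4l and Rpl14 were lower on all 4 scales, and each of these 8 calls was kept when any 1 of the 18 arrays was left out. Of these, Rpl7l1, Rpl27a, Rps4l and Rpl14 were read on probe sets of low signal. Rpl27a and Rpl14 also have an abundant probe set that lists several symbols. Its age change is not given, so that their calls hold for the low-signal probe sets.

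**Figure D4:**
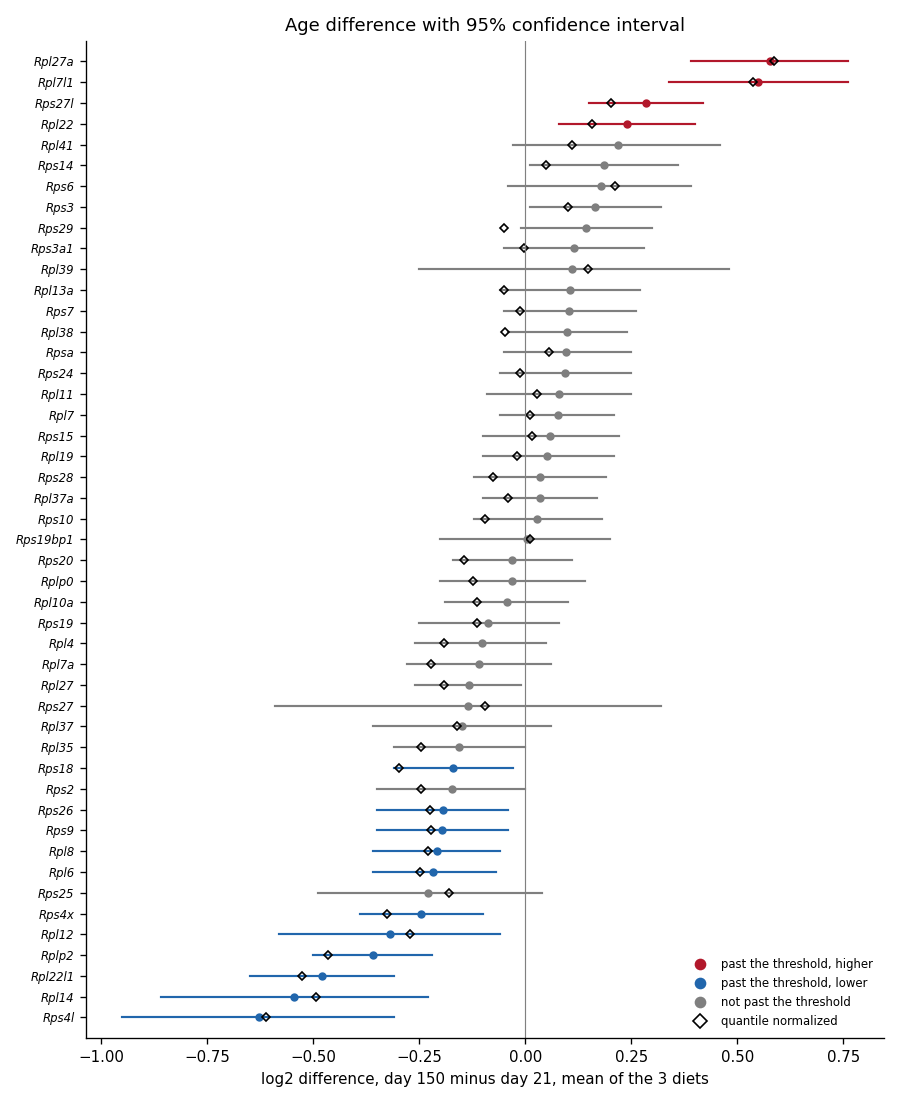
Difference between day 150 and day 21 (log2, mean of the 3 diets) of the 47 genes with 95% confidence intervals as deposited (points and lines), coloured by the test, and the same difference after quantile normalization (open diamonds). Rpl27a is at the top with 0.58 and Rps4l at the bottom with -0.63, and the diamonds of most abundant genes lie to the left of the points.

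Rpl22l1 and Rpl22 moved in opposite directions. Rpl22l1 had a mean of 18375.1 at day 21 and 13182.5 at day 150 (-0.48, SE 0.08, limma adjusted p = 9.2e-05). Its arrays of both days are given above. Rpl22 had 26276, 27406 and 22809.5 in control, 25658, 20756 and 24587 in HP pregnancy and 19274, 24140.2 and 18617 in HP lactation arrays at day 21. At day 150 it had 24107, 31615 and 29072, 25569, 30003 and 32573 and 27105, 24731 and 22601. The days overlapped for each gene taken alone, and Rpl22 was higher at day 150 by 0.24 (SE 0.08, adjusted p = 0.016). The difference between the 2 genes, taken within each array, did not overlap between the days: it changed by -0.67 in control, -0.78 in HP pregnancy and -0.71 in HP lactation, with a mean of -0.72 (two-sided exact permutation of days within diets, p = 0.00025, the smallest that 8000 arrangements give, 0.001 adjusted over 4 pairs). Such a difference within an array does not depend on its scaling by a constant, and it compares changes, not levels, of the 2 genes. Both other probe sets of Rpl22 were also higher at day 150, by 0.16 and 0.30, the second past the threshold.

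The other pairs of paralogs gave smaller or less even differences. Rpl7l1, which takes part in ribosome assembly, rose against Rpl7 by 0.47 (exact p = 0.007, 0.014 adjusted). Its probe sets did not go one way: those of mean signal 1395.1 and 337 rose by 0.55 and 0.86, and the one of 1274.5 fell by 0.33, all past the threshold. Rps27l against Rps27 gave 0.42 (exact p = 0.117 raw and adjusted) and Rps4l against Rps4x -0.38 (exact p = 0.0888, 0.117 adjusted). Rps27 was read on a probe set of low signal.

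Rplp2, one of the acidic proteins of the stalk that engages the translation factors, had 32689.9, 35542 and 31542 in control, 28539, 26538 and 29413 in HP pregnancy and 26200.0, 31273 and 25654 in HP lactation arrays at day 21. At day 150 it had 25097, 26020.4 and 25746, 19278, 20611 and 25289 and 25721, 19521 and 21399.8. Within control and within HP pregnancy the days did not overlap, and in HP lactation replicate 4 of day 150 lay within the day 21 values. Of all 11018 genes, 1825 in control and 2281 in HP pregnancy had day 150 arrays all below those of day 21. The mean of Rplp2 fell from 29546.3 to 23020.1 (-0.36, SE 0.07, limma adjusted p = 0.00031, and -0.47 on the quantile scale). Rplp0, the protein that anchors the stalk, differed by -0.03 (SE 0.08, adjusted p = 0.78).

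Rps27l, a paralog of Rps27 and a known p53 target, had 24591, 25002 and 21215 in control, 24335, 19064 and 21738 in HP pregnancy and 17759.8, 21044 and 19149.9 in HP lactation arrays at day 21. At day 150 it had 24473, 28865 and 27339, 24458, 28493 and 29544 and 25576, 23249 and 23378. Within each HP diet the days did not overlap. Of all 11018 genes, 2561 in HP pregnancy and 2205 in HP lactation had day 150 arrays all above those of day 21. The rise of Rps27l was 0.28 (SE 0.07, limma adjusted p = 0.0017), and its other 2 abundant probe sets rose by 0.22 and 0.24, both past the threshold.

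Rpl27a was the only member whose 9 arrays at day 150 all lay above its 9 arrays at day 21. The share of all genes with such arrays is not given, so this is not a trait set apart from other genes. It had 804, 676 and 774 in control, 688, 669 and 581 in HP pregnancy and 750.3, 771 and 522 in HP lactation arrays at day 21. At day 150 it had 943, 1318 and 1039.6, 1023, 1029.5 and 939 and 1062, 997 and 909. The rise was 0.58 (SE 0.09, limma adjusted p = 4.3e-05), on a probe set of low signal.

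**Figure D5:**
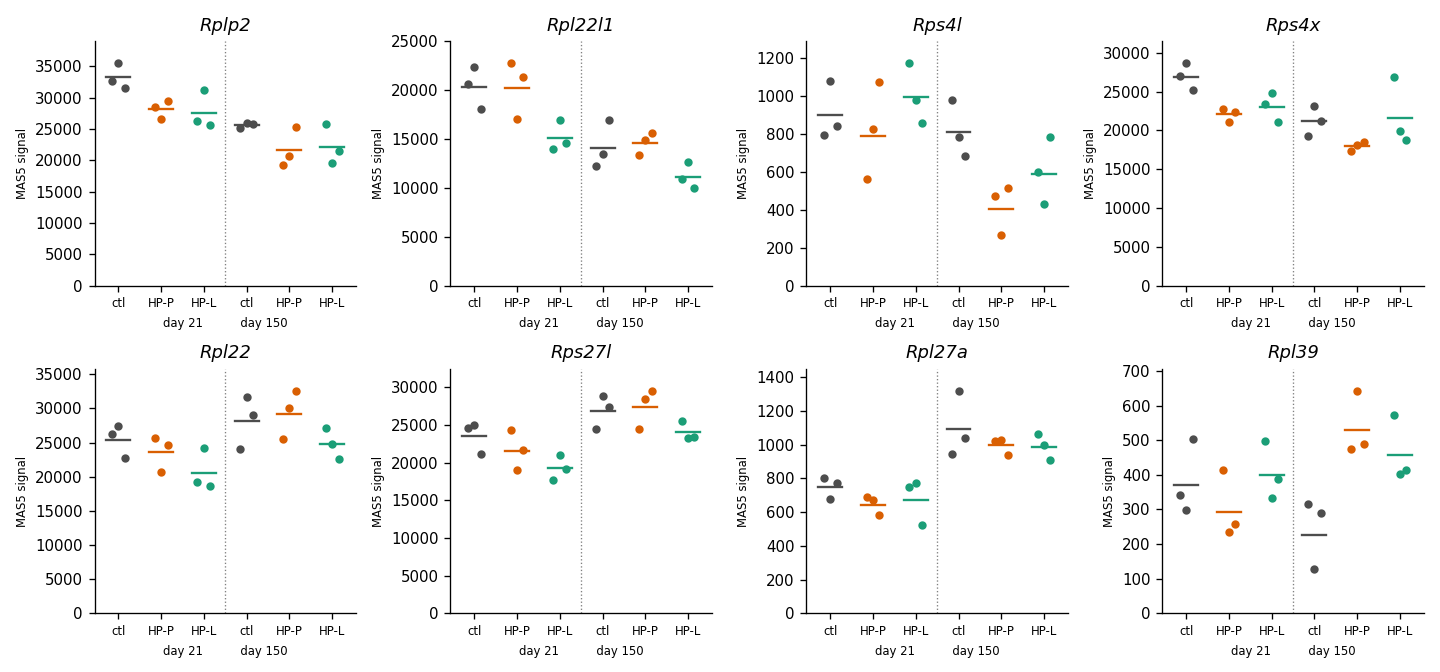
MAS5 signal of 8 genes on each array (points) with the geometric mean of each group (lines), for control (ctl), HP pregnancy (HP-P) and HP lactation (HP-L) at day 21 and day 150. In the mean of the 3 diets Rplp2, Rpl22l1, Rps4l and Rps4x are lower at day 150 and Rpl22, Rps27l and Rpl27a higher, and the day 150 HP arrays of Rpl39 lie above the control arrays.

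Among the abundant members, those lower at day 150 on both scales were Rplp2, Rpl22l1, Rps4x, Rpl6, Rpl8, Rps9, Rps26 and Rps18, with differences from -0.48 to -0.17 as deposited. Rps4x fell from a mean of 23933.7 to 20190.5 (-0.24, SE 0.07, limma adjusted p = 0.0071). With an equal 75th percentile 6 of these 8 were not called, Rps4x with an adjusted p of 0.053 among them. Leaving out 1 of the 18 arrays at a time kept the calls of Rps4x and Rpl6 in all 18 cases, that of Rpl8 in 17, Rps9 in 9, Rps26 in 8 and Rps18 in 6. The other 2 abundant probe sets of Rps18 gave positive differences, 0.20 (limma adjusted p = 0.071) and 0.13 (adjusted p = 0.27), neither past the threshold. The subunits were close: medians over 18 abundant members each were -0.04 for the large and 0.05 for the small subunit as deposited, and -0.12 and -0.06 on the quantile scale.

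Probe sets of 1 gene could differ. Rpl35, at the tunnel exit of the large subunit, has 5 abundant probe sets. The brightest, with a mean signal of 23803.6, gave an age difference of -0.16 (limma adjusted p = 0.10), and the next -0.17. The other 3, with means of 19211.8, 14856.7 and 14741.2, fell by 0.47, 0.37 and 0.52, all past the threshold. Over all probe sets that name 1 member alone, 29 of 93 were called between the days, 9 higher and 20 lower (42.1% of all probe sets). Of 102 probe sets that list a member among several symbols, 6 were called higher and 23 lower.

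Genes that build ribosomes or work with them were read in the same way, beside 22.3% of all genes called lower and 25.3% called higher. The lists were not tested against other genes. Of 59 biogenesis genes 28 were lower and 7 higher at day 150 in the mean of the 3 diets, with a median of -0.27 against 0.02 for all genes and 0.00 for the members. The nucleolar protein Ncl fell from 5947.8 to 2773.8 (-1.10, SE 0.09, limma adjusted p = 1.1e-08), and Myc, which drives ribosome production, from 1150.7 to 328.8 (-1.81, SE 0.27, adjusted p = 2.4e-05). Of 33 initiation factors 17 were lower and 5 higher (median -0.16). Among them Pabpc1, the poly(A) binding protein, whose mRNA is itself a TOP mRNA, fell from 17293.9 to 11209 (-0.63, SE 0.05, adjusted p = 3.4e-08). Of 76 mitochondrial ribosomal proteins 32 were lower and 8 higher (median -0.15), with Mrps28 falling by 1.01. Of 15 other TOP mRNAs 5 were lower and 1 higher (median -0.09), the higher one being Eif4b, at 0.42 (SE 0.05, adjusted p = 3.5e-06). Of 16 genes of mTORC1 and TOP control 5 were lower and 2 higher, and Mtor fell by 0.45 (SE 0.08, adjusted p = 8.6e-05). Of 12 cell cycle genes 6 were lower and 0 higher. These lists overlap in part.

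Other measures also moved with age. The ratio of the 3′ to the 5′ probe set of Gapdh, a sign of RNA quality and labelling, was 0.821 to 0.993 on the day 21 arrays and 1.3 to 1.79 on the day 150 arrays, without overlap. The same ratio of Actb was 1.96 to 3.15 at day 21 and 4.06 to 6.5 at day 150, also without overlap. With the Gapdh ratio as a covariate 0 of 47 members were called by limma in the mean of the 3 diets (0.227% of all genes). At an unadjusted p under 0.05 there were 10 (21.3%, against 7.9% of all genes). The members' median of the mean over diets became -0.43. The median of all genes in this fit is not given, so this value is not read as a change of the family. Since both ratios part the days, they and age cannot be told apart. At day 150 the mean Gapdh ratio also differed between diets, with arrays that overlapped. It was 1.48 ± 0.27 (SD, n = 3) in control, 1.75 ± 0.068 in HP pregnancy and 1.68 ± 0.11 in HP lactation. The diet call of Rpl39 at day 150 was not made with this covariate. The 5 hepatocyte markers on the array had mean signals of 10534.8 to 43417.5, and 3 of 5 rose with age. Summed signals of 6 macrophage markers were 7966.2 to 13446 at day 21 and 12111.9 to 18153.7 at day 150, with 4 of 6 higher and 1 lower. Those of 6 stellate cell markers were 15369.2 to 22867.5 and 8581.6 to 14745.8, with 4 of 6 lower. Those of the 5 B and plasma cell markers on the array were 140.5 to 543.6 and 593 to 1501.7, with 3 of the 4 tested higher, and no T or NK cell marker was above the filter. The part of these cells in the members' differences was not tested. In whole liver, fewer cells of a type and less RNA per cell cannot be told apart.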

How the data were processed

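Liver RNA of 18 pools was measured on Affymetrix mouse arrays of 45101 probe sets. The deposited values are signal intensities on a linear scale, made by the authors with MAS5 in GCOS 1.4, per the submitters' processing notes. They were used as deposited, as log2 with no offset. Of the probe sets, 34945 had 1 gene symbol in the platform annotation, 932 several, 9160 none and 64 were controls; only the first kind was used for genes. Probe sets with a mean under the median of all non-control probe sets (log2 5.85) were left out, and the one with the highest mean stood for its gene. Group means were fitted to 11018 genes with limma 3.58.1 in R 4.3.3 (eBayes with trend, 12 residual and 6.47 prior degrees of freedom), with Benjamini-Hochberg adjustment and a threshold of 0.05. The number of arrays, 3 a group, limits the precision.

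The members, gene lists and tests were chosen with earlier results of these data known. Any member could be named, first those past the threshold, then those with the smallest p or with arrays that did not overlap; from other lists, genes past the threshold or among those with the smallest p. Alternatives covered scaling, offset, filter, probe set choice, variance model, weights, threshold, covariate, block and left-out arrays. The code was tested on simulated data. Replicate numbers did not pair arrays: deviations of same-numbered arrays correlated at -0.11 to 0.10. Figures were drawn with matplotlib 3.10.9.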

Additional observations from a re-analysis of the deposited data

How the results depend on the processing

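Counts and medians for the members were recomputed under each alternative, and counts that moved by over 1.5 times and medians that moved by more than the SD between arrays follow. In this section counts are not set beside the shares of all genes called in the same fits. Whether members moved more than other genes is therefore not shown. Quantile normalization gave day 21 medians of -0.044 (HP pregnancy) and -0.027 (HP lactation), a median of -0.016 for the change of the HP lactation response, and 10, 13, 12 and 24 age calls in control, HP pregnancy, HP lactation and their mean. Centring arrays on the median abundant member, chosen after seeing the data, gave day 21 medians of 0.027 and 0.012 and response changes of -0.07 and -0.043. It gave an age median of 0.076 in control, and 7 (control), 9 (HP lactation) and 27 (mean) age calls. Such centring takes the members as their own reference, so that their medians were held near 0 in advance. It cannot tell whether the family as a whole shifted. The Gapdh ratio as a covariate gave 0 calls at every age comparison, age medians of -0.395, -0.459, -0.473 and -0.433 and response changes of -0.032 and -0.029, and turned Rps27l to -0.225 (HP pregnancy) and -0.273 (HP lactation). Probe sets of the plain design alone gave 0.048 for HP lactation at day 21, -0.047 for its response change, and 2, 4, 2 and 6 age calls. For HP pregnancy at day 150 the count was 2 with 50 added, the filter at the 70th percentile, array weights, a threshold of 0.10 or without the 2 arrays with Xist signal, and 0 with no filter, the mean of all probe sets, no trend, the Gapdh covariate or centred arrays. Age calls in HP pregnancy were 4 with no filter or the mean of all probe sets. Those in HP lactation were 1 with no filter, 2 without trend and 1 with the compared groups alone. Those in control were 0 without the arrays with Xist signal. The causes were not tested.

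Leaving out 1 array at a time gave 0 calls each time for HP pregnancy at day 150, and 0 to 3 age calls in control, 2 to 5 in HP pregnancy, 1 to 4 in HP lactation and 10 to 18 in their mean. With the replicate number as a block, over the 15 arrays numbered 1 to 3, there were 5 age calls in control and 8 in HP pregnancy; Rps27l in HP pregnancy lost its call (limma adjusted p = 0.054), and no other call of a member was lost. Of these 15 arrays, 0 correlated best with their own number.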
